A study of Mus musculus with 12 samples.

Results

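The nuclear genes for subunits of the 5 oxidative phosphorylation complexes were followed array by array in mouse pancreatic islets. Members were the genes with a named probe whose symbol begins with Nduf followed by a, b, c, s or v and a digit, is Sdha, Sdhb, Sdhc or Sdhd, or begins with Uqcr, with Cox4 to Cox8 or with Atp5. This rule found 82 of 17305 named genes, of which 35 belong to complex I, 4 to complex II, 8 to complex III, 18 to complex IV and 17 to complex V. Each gene was read from its brightest probe. The rule uses gene names and no measured value.

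Islets came from chow-fed mice on a mixed C57BL/6 x Sv129 background, given in the labels as 4 weeks old, an age that differs from the one in the study's text. The 4 genotypes were WT, PPARg2KO (the whole-body deletion of PPARγ2, the PPARγ isoform found mainly in fat), OB (ob/ob mice, which make no functional leptin and overeat) and DKO (mice that lack both leptin and PPARγ2, called POKO in the study). OB and DKO thus share the leptin defect, and PPARg2KO and DKO share the PPARγ2 deletion. Each genotype had 3 single-colour arrays, and per the study's methods every array held RNA pooled from the islets of 3 to 4 mice, female according to its text, so that the spread between arrays is a spread between pools. The islets were hand-picked after collagenase digestion and kept overnight in culture. The comparison of interest to the study was how islets that do (OB) and do not (DKO) expand under insulin resistance differ from lean islets and from each other.

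Oxidative phosphorylation burns the electrons of NADH and succinate in the inner mitochondrial membrane and stores the energy as ATP. Complex I (NADH dehydrogenase) and complex II (succinate dehydrogenase) pass electrons to coenzyme Q, complex III (the cytochrome bc1 complex) passes them on to cytochrome c, and complex IV (cytochrome c oxidase) hands them to oxygen. Complex V, the ATP synthase, uses the proton gradient built by complexes I, III and IV. In β-cells the rise in the ATP to ADP ratio closes potassium channels and starts insulin secretion, which ties these genes to the main task of the islet.

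The deletion could be read from the arrays. Pparg, read by a single probe, stood at 8.87, 8.98 and 8.85 log2 units in WT and at 8.54, 9.77 and 9.61 in OB. It stood at 7.44, 7.27 and 6.60 in PPARg2KO and at 6.41, 7.11 and 7.14 in DKO. All PPARg2KO and DKO arrays thus lay below all WT and OB arrays, while none of the Pparg differences was called (adjusted p = 0.257 between PPARg2KO and WT and 0.23 between DKO and OB, limma). Which part of the gene the probe reads, and so whether it tells the PPARγ isoforms apart, is not given in the sources used here. Between 54.3% and 64.9% of the spots were well above background and 0 were saturated. The median processed signal before normalization was 20.9 to 30.4 on the WT and PPARg2KO arrays and 30.7 to 40.6 on the OB and DKO arrays, so that brightness moved with the leptin defect, and its part in the results was not tested. Each of the 3 slides held 1 array of every genotype, always at the same position, so that slide position and genotype cannot be told apart. The islet hormones were among the brightest probes on all 12 arrays, with Gcg at 17.38 to 17.81 log2 units and Ins2 at the upper end of the scale, where quantile normalization fixes its value. All 9 acinar marker genes were present too, and their summed signal was 21.00 to 21.29 log2 units with overlapping genotypes. On every array this sum exceeded that of 7 β-cell markers (19.27 to 19.84), which does not rank the cell types, since probes differ in brightness. Near the upper end of the scale quantile normalization limits differences between arrays, so the overlap cannot show equal acinar content. B cell markers summed to 6.27 to 6.49 in WT, to 5.82, 11.40 and 6.74 in PPARg2KO, to 10.22 to 11.82 in OB and to 10.08 to 11.68 in DKO. T cell markers summed to 8.76 to 8.83 in WT, 8.05 to 10.33 in PPARg2KO, 9.78 to 11.24 in OB and 9.11 to 10.70 in DKO. Singly, 4 of 6 T cell markers had higher and 2 lower means than in WT, both in OB and in DKO. All 4 B cell markers had higher means there. Both lymphoid sums were thus higher in all OB and DKO pools than in WT, and highest among the PPARg2KO pools in replicate 2. The part of lymphoid transcripts in the members' differences was not tested. In such mixed tissue fewer cells of a type and less RNA per cell cannot be told apart.

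NRF1, GABPA, YY1 and the oestrogen-related receptors are factors known to act on promoters of respiratory chain genes. Some promoters are shown here as a description, and a link to the members' shifts between arrays was not tested. RefSeq promoter windows (GRCm38.p6, from 250 bases before to 50 after the start) were at hand for 67 of the 82 members, in 72 windows. The consensus of NRF1, with 1 free base in its centre and read on either strand, occurred in 17 of the 72 windows (23.6%) and in 4.60% of all 32851 windows. Also searched on both strands were CCGGAAGT for GABPA (6.94% of member windows, 3.89% of all), the YY1 consensus (5.56% and 0.633%), TCAAGGTCA for the oestrogen-related receptors (2.78% and 0.423%) and TATAAA (12.5% and 13.6%). Matches of different factors did not overlap in the members' windows. All 4 members with the YY1 consensus, Ndufa9, Ndufs7, Ndufs6 and Ndufs4, belong to complex I. The 150 bases before the start follow for members that hold the letters of these factors, with each match in capitals, and for Ndufc2, one of the members with the clearest difference between genotypes, which holds none. Ndufs6 (YY1), Atp5g3 (NRF1) and Sdhd (oestrogen-related receptor) hold a further match after the start, outside the stretch shown.
Atp5h (complex V, chr11:115419920-115420069, minus strand; NRF1, then GABPA): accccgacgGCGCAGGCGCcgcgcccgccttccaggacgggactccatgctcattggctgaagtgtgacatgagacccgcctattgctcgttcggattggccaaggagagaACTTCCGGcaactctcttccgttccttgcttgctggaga
Sdha (complex II, chr13:74350241-74350390, minus strand; 3 NRF1 matches): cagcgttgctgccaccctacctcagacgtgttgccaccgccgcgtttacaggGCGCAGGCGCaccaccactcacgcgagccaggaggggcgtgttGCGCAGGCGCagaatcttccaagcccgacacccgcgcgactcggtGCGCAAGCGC
Sdhd (complex II, chr9:50603850-50603999, minus strand; NRF1): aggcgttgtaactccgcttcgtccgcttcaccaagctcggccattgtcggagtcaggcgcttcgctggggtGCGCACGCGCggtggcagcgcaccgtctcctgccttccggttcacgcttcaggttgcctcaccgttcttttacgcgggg
Atp5g3 (complex V, chr2:73911327-73911476, minus strand; oestrogen-related receptor): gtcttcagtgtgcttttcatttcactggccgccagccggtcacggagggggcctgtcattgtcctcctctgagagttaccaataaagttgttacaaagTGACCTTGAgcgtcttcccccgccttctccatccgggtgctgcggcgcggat
Ndufs6 (complex I, chr13:73328483-73328632, minus strand; NRF1): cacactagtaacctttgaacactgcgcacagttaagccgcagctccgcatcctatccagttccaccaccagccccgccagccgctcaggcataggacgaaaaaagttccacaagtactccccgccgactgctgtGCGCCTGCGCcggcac
Ndufc2 (complex I, chr7:97399853-97400002, plus strand; no match): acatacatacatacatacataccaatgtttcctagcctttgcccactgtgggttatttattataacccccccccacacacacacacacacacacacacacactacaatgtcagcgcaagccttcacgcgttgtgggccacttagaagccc
A match is a run of letters and not a measured binding site. The 16 members with the NRF1 consensus and the 51 whose windows lack them had median differences that lay close together between PPARg2KO and WT (0.16 and 0.23 log2 units) and between DKO and OB (-0.12 and -0.07). These medians are given as a description.

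Of the 82 members, 78 were well above background on all 12 arrays. Cox4i2 was so on 3 arrays, and Cox7b2, Cox8b and Cox8c on none. Values are quantile-normalized log2 signals, on which a difference of 1 is a doubling. They compare one probe between arrays and do not rank different genes, since probes differ in brightness. The members' mean signal ran from 1.45 to 15.45 with a median of 12.14, and the standard deviation between arrays of 1 genotype had a median of 0.13. Cox6a2 had the largest such spread, 0.86. Among the probes with the most signal in their complex, which were named by a rule and not to rank the genes, were those of the accessory complex I subunits Ndufa13 (mean 14.60), Ndufb9 (14.04), Ndufs5 (13.88) and Ndufb8 (13.63). In complex III they were Uqcrq (14.73), Uqcrh (14.43), the core subunit Uqcrc1 (13.23) and Uqcr11 (13.11). In complex IV they were Cox6a1 (15.45), Cox4i1 (14.29), Cox5b (13.80) and Cox8a (13.64). In complex V they were the catalytic β subunit Atp5b (14.92), the ε subunit Atp5e (14.06), the membrane-ring subunit Atp5g3 (14.03) and the γ subunit Atp5c1 (13.86). The complex II probes had means of 9.95 for Sdha, 11.10 for Sdhb, 10.102 for Sdhc and 11.91 for Sdhd.

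**Figure D1:**
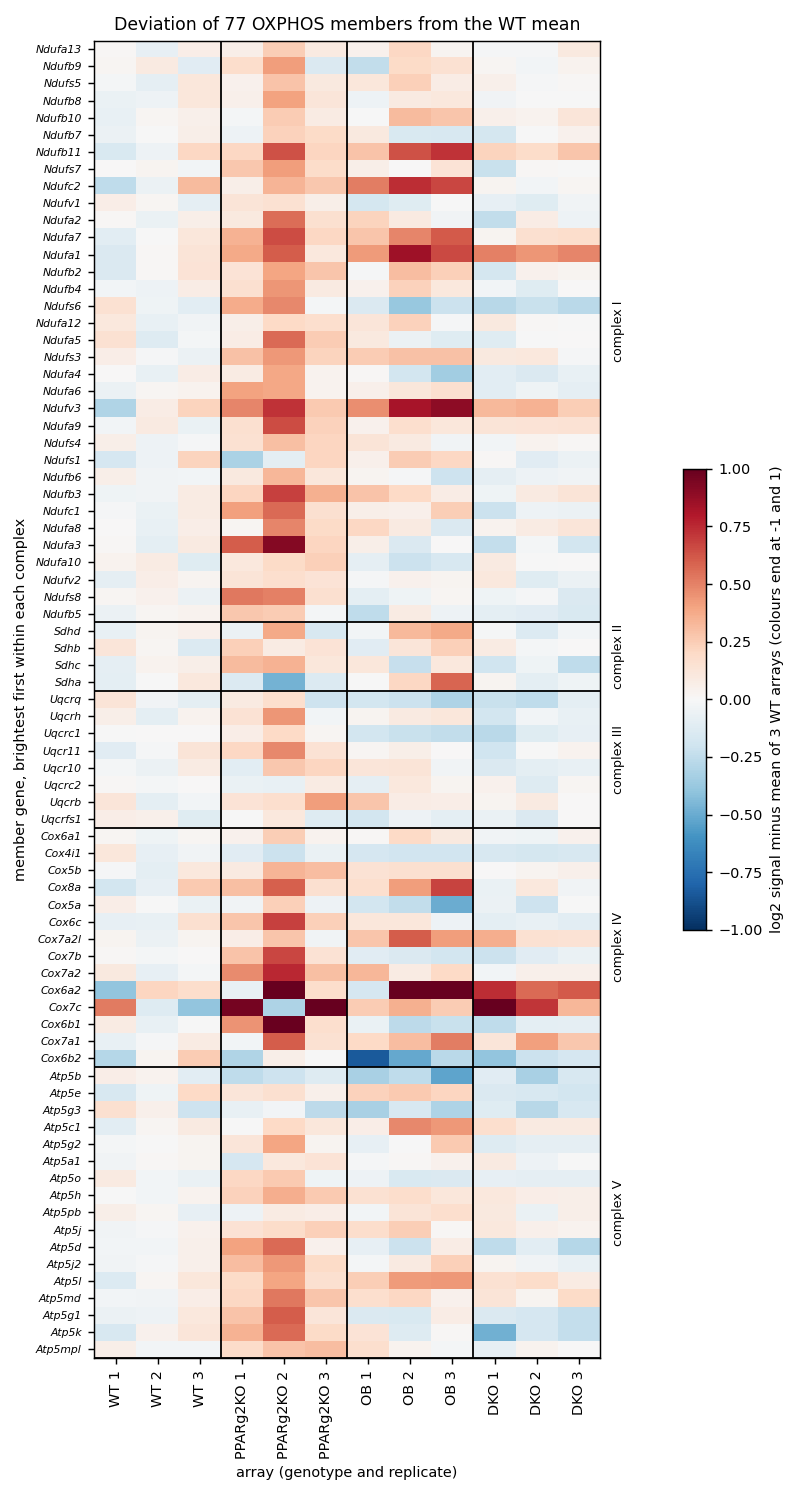
Deviation of 77 of the 78 members measured on all 12 arrays from their WT mean, in log2 units, with 1 row per gene (ordered by probe brightness within each complex) and 1 column per array. Red is above and blue below the mean of the 3 WT arrays. Most rows are red on PPARg2KO replicate 2. The 3 DKO columns are mostly pale, with Ndufa1, Ndufv3, Cox6a2 and Cox7c among the redder rows and Atp5k and Cox6b2 among the bluer ones.

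Averaged over the members, the WT arrays deviated from the WT mean by 0.00, -0.02 and 0.02 log2 units. PPARg2KO arrays stood 0.11, 0.34 and 0.09 above it. OB arrays stood at 0.01, 0.09 and 0.11, and DKO arrays at -0.03, -0.02 and -0.03. The PPARg2KO arrays thus lay above all WT and DKO arrays and overlapped with OB, and the DKO arrays lay below all others, by little in the case of WT replicate 2. With normexp correction the DKO arrays stood at -0.01, -0.01 and 0.00, within the range of WT, and with each array set to its 75th percentile they overlapped with OB. PPARg2KO replicate 2, the pool with B cell transcripts, stood apart from its own group. Each gene's genotype mean was highest in PPARg2KO for 53 of the 82 members, in OB for 19, in WT for 8 and in DKO for 2. It was lowest in DKO for 31 members, in WT for 30, in OB for 17 and in PPARg2KO for 4. These counts include the dim Cox4i2, Cox8b and Cox8c, highest in WT, and Cox7b2, highest in DKO. No share over all probes is given for them. The order of OB and WT depended on the scaling: with each array set to its 75th percentile instead of quantile normalization, the array means were -0.14, -0.09 and -0.14 in OB and -0.21, -0.12 and -0.14 in DKO, against 0.14, 0.44 and 0.04 in PPARg2KO and 0.05, 0.01 and -0.06 in WT. Under this scaling the median of all probes also moved, by -0.19 between OB and WT.

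**Figure D2:**
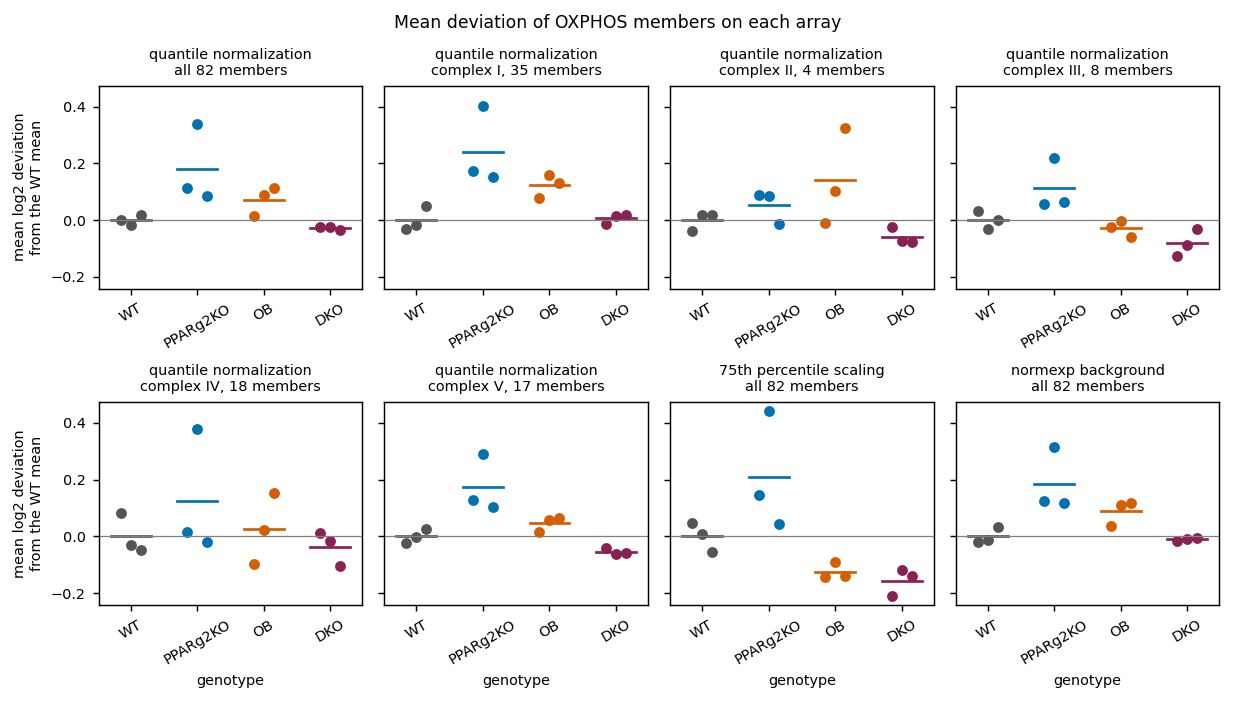
Mean log2 deviation from the WT mean over all members and over each complex, per array (points) and genotype mean (bars), under quantile normalization, and over all members under 75th percentile scaling and normexp background correction. The PPARg2KO mean is the highest in the panels of all members, with points from 0.09 to 0.34 under quantile normalization that overlap with OB. In the quantile panel of all members the OB mean lies above the WT mean, with OB replicate 1 within the range of WT. Under 75th percentile scaling all OB points lie below the WT points.

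Between OB and WT, 7 members passed the test, 6 of them higher and 1 lower in OB, at a Benjamini-Hochberg adjusted p of at most 0.05 in limma. That is 8.54% of the members, and 11.1% of all probes were called in this comparison (4.92% up and 6.14% down). The members were thus called no more often than probes in general. Ndufa1, an accessory subunit of the complex I membrane arm, had values of 12.08, 12.24 and 12.35 in WT and of 12.65, 13.07 and 12.88 in OB. It rose by 0.64 ± 0.14 (SE, n = 3 arrays per genotype; adjusted p = 0.0314, limma), a fold of 1.56, and its other probe was called too, with a difference of 0.63. Ndufc2, another accessory subunit of that arm, stood at 12.44, 12.64 and 13.01 in WT and at 13.21, 13.43 and 13.37 in OB and rose by 0.64 ± 0.14 (adjusted p = 0.0308, limma). The groups of both genes did not overlap.

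Ndufv3, a small subunit of the NADH-binding module, was at 10.81, 11.19 and 11.34 in WT and at 11.58, 11.94 and 12.01 in OB. It rose by 0.73 ± 0.17 (adjusted p = 0.0342, limma), although its 2 dimmer probes had differences of 0.37 and -0.28 that were not called. Ndufs3, a core subunit of the arm that carries the iron-sulphur clusters, was at 11.76, 11.68 and 11.63 in WT and at 11.94, 11.98 and 11.98 in OB and rose by 0.28 ± 0.08 (adjusted p = 0.0486, limma). Cox7a2l, which serves in joining complexes III and IV into supercomplexes, was at 11.45, 11.36 and 11.45 in WT and at 11.70, 12.03 and 11.84 in OB and rose by 0.44 ± 0.11 (adjusted p = 0.0425, limma). With the slide as a block its adjusted p was 0.0549 in limma and the call was lost, while the difference was 0.25, 0.67 and 0.39 on slides 1, 2 and 3. Atp5l, the g subunit of the ATP synthase, was at 11.96, 12.11 and 12.20 in WT and at 12.34, 12.52 and 12.53 in OB and rose by 0.37 ± 0.10 (adjusted p = 0.0437, limma). The reference lists pseudogenes of Atp5l, and the probe's letters, by which copies could be told apart, were not used here. Atp5b was the one called member that fell, from 15.18, 15.15 and 15.01 in WT to 14.78, 14.86 and 14.58 in OB, by a difference of -0.37 ± 0.10 (adjusted p = 0.0424, limma). With the slide as a block its adjusted p was 0.0555 in limma and the call was lost, while the difference was -0.39, -0.29 and -0.42 on slides 1, 2 and 3. Its other 2 probes were also lower, by -0.26 and -0.44, without being called.

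**Figure D3:**
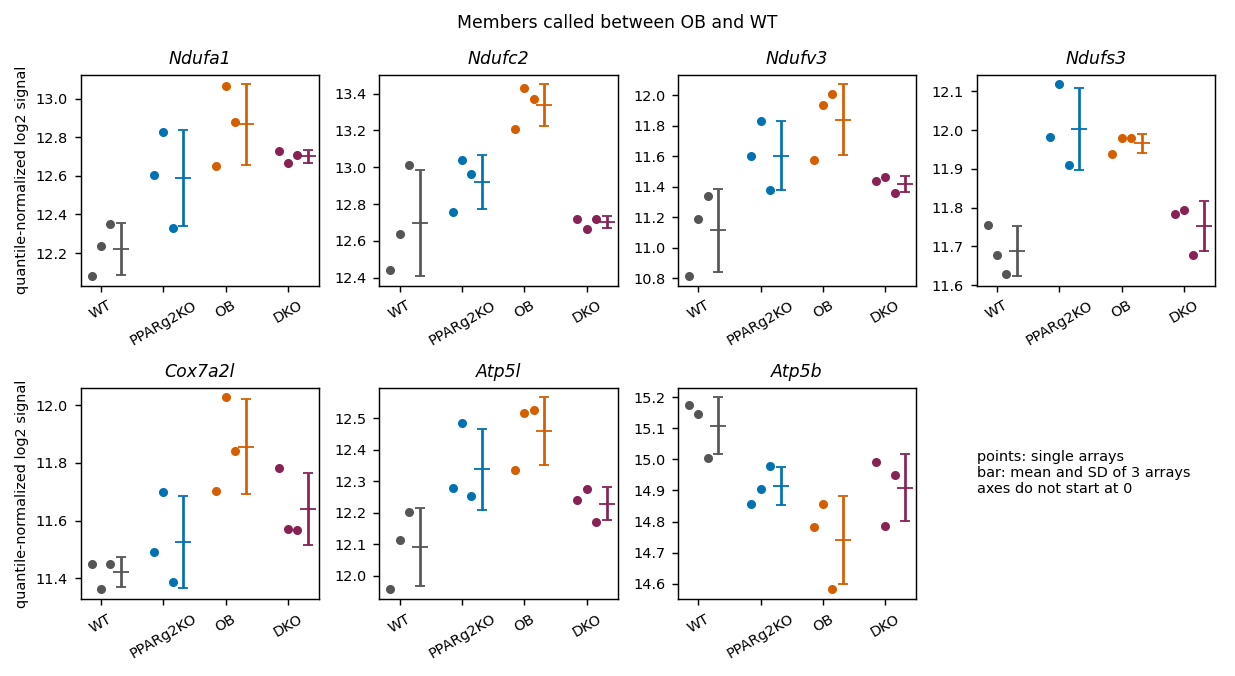
Quantile-normalized log2 signal of the 7 members called between OB and WT, on each array (points) with the mean and SD of the 3 arrays of a genotype. Values of OB and WT do not overlap in any panel, and only Atp5b is lower in OB.

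Among members that missed the threshold, Ndufb11 (0.55, adjusted p = 0.0528) and Ndufa7 (0.46, adjusted p = 0.0542) had higher values in OB, both by limma, and both belong to complex I. Cox6a2, the heart and muscle form of subunit VIa, had the largest difference, 1.28 ± 0.65 (adjusted p = 0.219, limma). Its values were 8.65, 10.24 and 11.40 in OB and 8.43, 9.03 and 8.998 in WT, so that 1 OB array lay within the range of WT. Skeletal muscle markers summed to 8.14 to 8.23 in OB, below the 8.29 to 8.53 in WT, and to 8.96 to 9.60 in DKO. Singly these 6 markers were mixed: 3 were higher and 3 lower in OB than in WT. In DKO, 2 were higher and 4 lower than in WT. The largest differences downwards besides Atp5b were those of Cox6b2 (-0.54), the testis form of subunit VIb, of Cox5a (-0.31), Atp5g3 (-0.27) and Ndufs6 (-0.24), with adjusted p from 0.0808 to 0.245 in limma. Cox5a, Uqcrc1 (-0.22) and Cox4i1 (-0.18) did not overlap between the groups and were not called. Over all members, 54 had a higher and 28 a lower mean in OB, where 39.7% of all probes were higher, with a median of 0.07 against -0.08 over all probes. Groups did not overlap for 13 members that were higher and 8 that were lower, beside shares of 11.3% and 29.9% of all probes, and 12 members were higher and 6 lower at an unadjusted p under 0.05 in limma, beside 12.3% and 18.8%. Of the 8 lower without overlap, 7 were well above background on all arrays. Markers of other cells differed as well. All 4 endothelial markers were higher in OB without overlap (sums of 11.22 to 11.58 against 9.93 to 10.87 in WT), all 5 macrophage markers had higher means (sums of 10.91 to 11.26 against 9.30 to 10.41), and adipocyte markers summed to 11.64 to 11.84 against 9.87 to 11.20. Of 4 duct markers 3 were lower, with Cftr and Krt19 called, and 1 was higher (0.54, not called). The duct sums overlapped, at 14.36 to 16.29 in OB against 15.89 to 16.25 in WT. The sums of β-cell markers (19.75 to 19.84 against 19.27 to 19.74) and of alpha cell markers (17.72 to 17.83 against 17.38 to 17.67) lay above all WT arrays. Such sums follow the brightest probes. Singly, 5 of 7 β-cell, 3 of 4 alpha cell and 3 of 5 adipocyte markers had higher means in OB, and the others had lower means. The part of these cells in the members' differences was not tested. By complex, 25 of 35 members were higher in complex I, 3 of 4 in complex II, 5 of 8 in complex III, 9 of 18 in complex IV and 12 of 17 in complex V. Cox4i2, Cox7b2, Cox8b and Cox8c, which were not above background on all arrays, count as lower in complex IV here. Of the 78 members above background on all arrays, 54 were higher. The scaling turned this direction: with the 75th percentile, 17 members were higher and 65 lower, the median was -0.14, and only Atp5b (-0.57) stayed called. A fit on the 6 arrays of WT and OB alone called none of the members, and leaving out WT replicate 1 or 2, OB replicate 2 or 3 or DKO replicate 3 also left none. The fit called 1 member without DKO replicate 1 or 2, 3 without PPARg2KO replicate 1 and 10 without WT replicate 3. The shares of all probes called in these fits are not given here. Without WT replicate 3, 13 members were higher and 7 lower at an unadjusted p under 0.05 in limma. Of all probes, 14.1% were higher and 21.4% lower there.

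Between PPARg2KO and WT no member and no other probe passed the adjusted threshold, so that the share called was 0%. At an unadjusted p under 0.05 in limma, 30 members were higher in PPARg2KO and none lower, 36.6% of the members, beside shares over all probes of 4.18% higher and 5.18% lower. By direction alone, 69 of the 82 were higher in PPARg2KO, against 41.6% of all probes. The median difference was 0.19 log2 units and that of all probes -0.03. Complex I had 33 of 35 members higher, complex II 3 of 4, complex III 6 of 8, complex IV 12 of 18 and complex V 15 of 17. The dim Cox4i2, Cox7b2, Cox8b and Cox8c count as lower in complex IV. Of the 78 members above background on all arrays, 69 were higher. Groups did not overlap for 35 members that were higher and 3 that were lower, where 4.10% and 8.55% of all probes did so. Of the 3 lower ones, 2 were well above background on all arrays.

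Ndufa3, an accessory subunit of complex I, stood at 10.57, 10.46 and 10.65 in WT and at 11.16, 11.48 and 10.77 in PPARg2KO, a difference of 0.58 ± 0.16 (adjusted p = 0.457, limma). Cox7a2, the widely expressed form of subunit VIIa, stood at 11.14, 10.96 and 11.02 in WT and at 11.51, 11.796 and 11.34 in PPARg2KO, a difference of 0.51 ± 0.12 (adjusted p = 0.378, limma). Cox6b1, the general form of subunit VIb, was at 8.36, 8.20 and 8.27 in WT and at 8.73, 9.27 and 8.45 in PPARg2KO (0.54 ± 0.18, adjusted p = 0.483, limma). In all these genes the 3 PPARg2KO arrays lay above the 3 WT arrays and replicate 2 was the highest. Cox7c did not follow that array: it was at 8.999, 7.74 and 9.11 in PPARg2KO and at 8.57, 7.91 and 7.65 in WT, with overlapping groups (0.57 ± 0.43, adjusted p = 0.664, limma). Cox6a2 (0.60 ± 0.65) overlapped as well, since its replicate 2 was at 10.53 and the other PPARg2KO arrays at 8.74 and 8.999.

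The 30 members under that p were spread over the large complexes. In complex I they included the core subunits Ndufs8 (0.40), Ndufs3 (0.32) and Ndufs7 (0.29), which carry or surround iron-sulphur clusters, and the accessory subunits Ndufb3 (0.42), Ndufa7 (0.40), Ndufc1 (0.38) and Ndufa9 (0.35). In complex V they included the stalk and membrane subunits Atp5h (0.29 ± 0.06, adjusted p = 0.351, limma), Atp5j2 (0.31), Atp5k (0.37) and Atp5g1 (0.34). In complex III they were Uqcr11 (0.28) and Uqcrb (0.24), and in complex IV Cox6c (0.40), Cox7b (0.36) and Cox5b (0.25) besides those given above.

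Few members had a lower mean. Sdha, the catalytic flavoprotein of complex II, was at 9.86, 9.95 and 10.06 in WT and at 9.82, 9.48 and 9.82 in PPARg2KO (-0.25 ± 0.15, adjusted p = 0.631, limma), and these groups did not overlap. Atp5b (-0.20), Cox4i1 (-0.13), Atp5g3 (-0.12) and Cox6b2 (-0.08) made up the rest of the 5 largest differences downwards, with adjusted p from 0.572 to 0.92 in limma. Complex II therefore held values on both sides, with Sdhc at 0.26, Sdhb at 0.15 and Sdhd at 0.05.

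PPARg2KO replicate 2 took a large part in these values. Without it, 66 members were higher and 16 lower, 19 were higher at an unadjusted p under 0.05 (3.75% of all probes), and the median was 0.12 instead of 0.19. Without PPARg2KO replicate 3 it was 0.23, and 1 member was called. Within slides the medians were 0.12, 0.37 and 0.045 on slides 1, 2 and 3, with 63, 72 and 57 members higher, and 49 members were higher on all 3 slides while 7 were lower on all 3. The direction held under normexp correction (69 members higher, median 0.20) and under 75th percentile scaling (71 higher, median 0.24). The members higher at an unadjusted p under 0.05 in limma numbered 38 under the former (3.59% of all probes). Under the latter they numbered 14 (4.1% of all probes), and 1 member was lower (4.35%).

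Between DKO and OB, both of which lack leptin, no member was called, and 2 probes of all (0.00486%) were. A total of 61 members had a lower and 21 a higher mean in DKO, and 54.1% of all probes were higher. The median was -0.08 against 0.01 for all probes. At an unadjusted p under 0.05 in limma, 8 members were lower (4.37% of all probes) and 1 was higher (4.91% of all probes). The 22 members whose groups did not overlap with DKO lower, where 8.93% of all probes did so, included 10 of complex I, 2 of complex III, 5 of complex IV and 5 of complex V. The dim Cox4i2 is among them, and 21 of the 22 were well above background on all arrays. One member, Ndufa10, did not overlap in the other direction, beside 8.78% of all probes.

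Ndufc2, which had risen between WT and OB, was at 12.72, 12.67 and 12.72 in DKO against 13.21, 13.43 and 13.37 in OB. The difference was -0.63 ± 0.14 (95% interval -0.95 to -0.32, adjusted p = 0.531, limma), and the DKO values lay within the range of WT. Atp5e, the ε subunit of the ATP synthase, was at 13.87, 13.86 and 13.83 in DKO and at 14.25, 14.28 and 14.24 in OB, a difference of -0.40 ± 0.09 (adjusted p = 0.531, limma) with hardly any spread in both groups. Ndufv3 (-0.42), Cox8a (-0.42), the general form of subunit VIII, Ndufa7 (-0.34), Atp5k (-0.30), Atp5l (-0.23) and Ndufs3 (-0.21) were the other members under an unadjusted p of 0.05, none called. Cox6a2 (-0.64 ± 0.65) overlapped. The larger differences upwards were Cox7c (0.60 ± 0.43), Cox6b2 (0.28), Cox5a (0.22), Ndufa10 (0.18 ± 0.08, adjusted p = 0.533, limma) and Atp5b (0.17). By complex, 28 of 35 were lower in complex I, 4 of 4 in complex II, 5 of 8 in complex III, 10 of 18 in complex IV and 14 of 17 in complex V.

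The medians within slides were -0.06, -0.10 and -0.09, with 25 members lower on all 3 slides and 5 higher on all 3. Under 75th percentile scaling 47 members were lower and 35 higher and the median was -0.02, and under normexp correction 62 were lower with a median of -0.08. At an unadjusted p under 0.05 in limma, 2 members were lower under the former (3.75% of all probes) and 12 under the latter (4.95%). Without DKO replicate 3, 3 members were lower at that p (1.97% of all probes). Markers of β-cells went the same way: all 7 measured had a lower mean in DKO than in OB, with a median of -0.73 (Nkx6-1 at -0.84, Slc2a2 at -0.96 and Pdx1 at -0.62, none called), and their summed signal was 19.63 to 19.68 in DKO and 19.75 to 19.84 in OB. Their part in the members' differences was not tested. Delta cell markers and the PP cell marker Ppy were lower in DKO as well, at sums of 14.59 to 15.40 against 15.64 to 16.24 and of 15.05 to 15.29 against 15.78 to 16.00. All 4 endothelial markers had lower means in DKO (median -0.22), and all 5 fibroblast markers had higher means (median 0.86), with overlapping values.

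Whether PPARγ2 loss went with different changes in the lean and in the leptin-deficient background was tested as an interaction, the difference between DKO and OB minus that between PPARg2KO and WT. These differences share no arrays. No member and no probe passed the adjusted threshold (lowest adjusted p of a member 0.221, limma). At an unadjusted p under 0.05, 33 members had a negative and 1 a positive value, where 6.36% and 7.53% of all probes did so. The sign was negative for 70 of 82 members, and the median was -0.32 log2 units against 0.04 over all probes. It was -0.29 in complex I, -0.27 in complex II, -0.17 in complex III, -0.28 in complex IV and -0.34 in complex V. Of the 69 members higher in PPARg2KO than in WT, 55 were lower in DKO than in OB.

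The largest negative values apart from Cox6a2 (-1.24 ± 0.92) were those of Ndufv3 (-0.91 ± 0.24, adjusted p = 0.262), Ndufc2 (-0.86 ± 0.20, adjusted p = 0.248), Cox8a (-0.77 ± 0.24, adjusted p = 0.274) and Ndufa7 (-0.74 ± 0.19, adjusted p = 0.255), all by limma. Ndufs3 had the smallest p of the members, with a value of -0.53 ± 0.11 (adjusted p = 0.221, limma). Its means were 11.69 in WT, 12.003 in PPARg2KO, 11.97 in OB and 11.75 in DKO. It was thus higher with a single defect than with none or both. Positive values were those of Atp5b (0.36), Cox6b2 (0.36), Atp5g3 (0.20), Cox5a (0.17) and Cox4i1 (0.15), of which Atp5b alone had an unadjusted p under 0.05 in limma (adjusted p = 0.304). Without PPARg2KO replicate 2 the median was -0.23 with 67 members negative, and 75th percentile scaling gave -0.26 with 66 negative. Under that scaling 11 members instead of 33 had a negative value at an unadjusted p under 0.05 in limma, beside 6.13% of all probes.

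**Figure D4:**
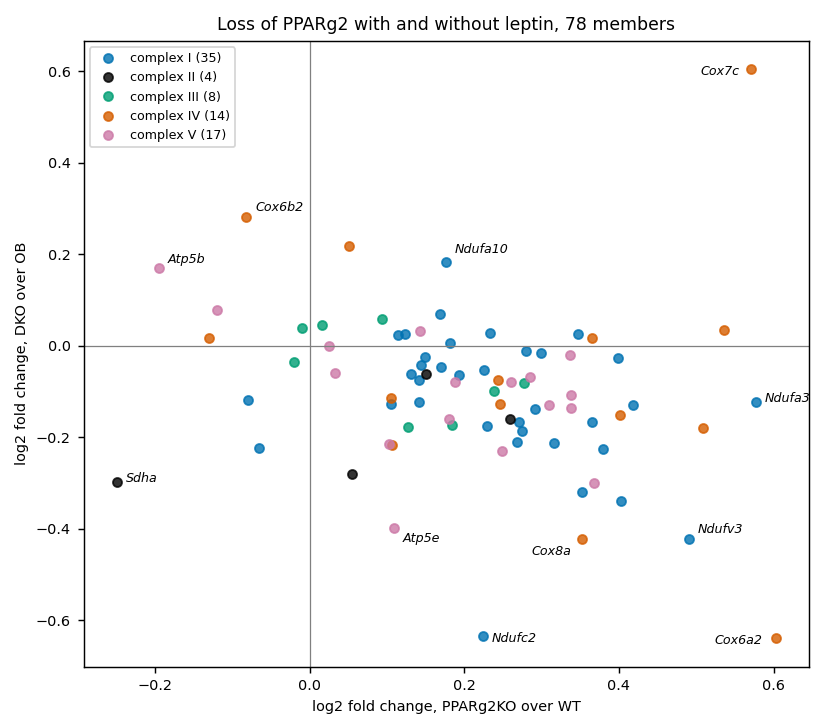
Log2 fold change of PPARg2KO over WT (horizontal) and of DKO over OB (vertical) for the 78 members measured on all arrays, coloured by complex. Most points lie in the lower right, higher in PPARg2KO than in WT and lower in DKO than in OB, and Ndufc2, Atp5e and Cox8a lie low while Cox7c lies high.

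Between DKO and WT no member was called, where 0.194% of all probes were (0.0316% lower), and Ndufa1 alone had an unadjusted p under 0.05, at 12.73, 12.67 and 12.71 in DKO (0.48 ± 0.14, adjusted p = 0.155, limma), above all WT arrays. At that p, 6.83% of all probes were higher and 9.52% lower. Groups did not overlap for 7 members that were higher and 16 that were lower, beside shares of 9.23% and 25.6% of all probes. Of the 16 lower ones, 14 were well above background on all arrays. The median was -0.04 with 32 members higher and 50 lower, beside -0.08 and a share of 35.9% higher for all probes, and -0.18 with 9 higher and 73 lower under 75th percentile scaling. Cox7c (0.89 ± 0.43), Cox6a2 (0.64), Ndufv3 (0.31) and Cox7a1 (0.27) were the next largest upwards. Atp5k (-0.30), Cox6b2 (-0.26), Ndufs6 (-0.26), Atp5d (-0.21) and Atp5b (-0.20) were the largest downwards, none called.

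Most members had higher means in PPARg2KO than in either leptin-deficient genotype. Against DKO no member was called (0.00971% of all probes were), 72 of 82 were lower in DKO where 41.9% of all probes were higher, and 35 had an unadjusted p under 0.05 in limma with DKO lower and none with DKO higher, beside 6.39% and 4.67% of all probes. The 44 members that did not overlap with DKO lower (16.1% of all probes) included 23 of the 35 of complex I and 11 of the 17 of complex V, while Sdha did not overlap in the other direction (6.29% of all probes). Atp5k, the e subunit of the ATP synthase, had the smallest p, at 11.002, 11.31 and 11.25 in DKO and 11.83, 12.05 and 11.67 in PPARg2KO (-0.66 ± 0.13, adjusted p = 0.193, limma). Ndufa3 (-0.73), Cox6b1 (-0.68), Atp5d (-0.55) and Ndufs6 (-0.54) completed the 5 largest. Upwards, Cox7c (0.32), Sdha (0.21), Cox7a2l (0.11) and Ndufa1 (0.11) had the larger differences, with overlapping values except for Sdha. The median was -0.21, and -0.15 without PPARg2KO replicate 2, where 21 members were lower at an unadjusted p under 0.05 in limma (5.81% of all probes). Without PPARg2KO replicate 3, 11 members were called, and the share of all probes called there is not given here. At an unadjusted p under 0.05 in limma, 36 members were then lower. The share of all probes lower at that p was 9.81%, against 6.39% with all arrays. On each slide most members were lower in DKO, 51 of them on all 3 slides and 1 higher on all 3.

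Between OB and PPARg2KO no member was called (0.00486% of all probes were, 0.00243% in each direction). A total of 61 members were lower in OB, where 42% of all probes were higher, 28 with an unadjusted p under 0.05 in limma (11% of all probes were lower) and 3 higher (8.37%). Cox6b1 (-0.72), Ndufa3 (-0.60), Ndufs6 (-0.52), Cox7b (-0.51) and Cox6b2 (-0.46) had the largest differences downwards, with adjusted p from 0.095 to 0.216 in limma. Sdha (0.51), Ndufc2 (0.42) and Cox7a2l (0.33) had higher means in OB, with adjusted p from 0.132 to 0.168 in limma, and Cox6a2 (0.67) and Ndufa1 (0.28) overlapped between the groups. The median was -0.13, and -0.07 with 10 members lower at that p without PPARg2KO replicate 2 (9.99% of all probes). Under 75th percentile scaling it was -0.39, with 73 members lower and 48 of them at that p (10.7% of all probes). Without PPARg2KO replicate 3, 7 members were called, and without OB replicate 1 there was 1. The shares of all probes called in these 2 fits are not given here. In the former, 25 members were lower at that p, beside 13.3% of all probes. These 3 comparisons share arrays with those above and are no separate evidence.

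Several subunits come in paralogous forms, one general and one of muscle, lung, testis or fat. Of the tissue forms, Cox6a2, Cox6b2 and Cox7a1 were well above background on all arrays. Cox4i2, a form of subunit IV known from lung, was so on 3 arrays, and Cox7b2, Cox8b and Cox8c on none, so no level or fold is given for the last 3. Cox7a1, the heart and muscle form of subunit VIIa, was at 7.10, 7.16 and 7.25 in WT, 7.14, 7.78 and 7.32 in PPARg2KO, 7.37, 7.48 and 7.68 in OB and 7.29, 7.58 and 7.44 in DKO. OB and DKO both lay above WT without overlap and were not called (0.34 ± 0.16 and 0.27 ± 0.16, adjusted p = 0.186 and 0.453, limma). Its partner Cox7a2 was highest in PPARg2KO instead. Cox4i1, the general subunit IV, was at 14.52, 14.33 and 14.38 in WT and at 14.20 to 14.34 in PPARg2KO, 14.22 to 14.25 in OB and 14.24 to 14.25 in DKO, below WT without overlap in OB and in DKO. Cox6a1 stayed between 15.36 and 15.65 on all arrays. Ndufa4, now counted with complex IV although its name puts it in complex I here, was lower in OB than in PPARg2KO (-0.34 ± 0.12, adjusted p = 0.165, limma) without overlap. Ndufa4l2 has no named probe.

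Genes around the complexes were set beside the members. Ndufab1, the mitochondrial acyl carrier protein and a complex I subunit that the rule misses by its name, had values of 0.23 between PPARg2KO and WT (adjusted p = 0.496, limma) and -0.33 between DKO and PPARg2KO (adjusted p = 0.267, limma). It had -0.08 between DKO and OB and -0.02 between OB and WT, with adjusted p of 0.835 and 0.91 in limma. Cycs, the cytochrome c gene, had -0.30 between OB and WT and -0.06 between PPARg2KO and WT, neither called. Between OB and WT, where 11.1% of all probes were called and 6.14% were called lower, 1 of 14 complex I assembly genes was called, Ndufaf1 (-0.51, adjusted p = 0.0435, limma). Of 18 complex IV assembly genes, Surf1 rose (0.66, adjusted p = 0.0206), and Cox10, which makes haem O (-1.04, adjusted p = 0.028), and the copper carrier Sco1 (-0.62, adjusted p = 0.0472) fell, by limma. Of 12 electron carrier and coenzyme Q genes, Pdss1 (-0.68), Coq4 (-0.67) and Coq10b (-0.46) fell, with adjusted p from 0.0271 to 0.0398 in limma. Citrate synthase (Cs, -0.40, adjusted p = 0.036) and Dlst (-0.44, adjusted p = 0.0243) fell among 13 citric acid cycle genes, by limma. Assembly factors of complexes II, III and V held no call among 4, 5 and 3 genes, nor did 8 mitochondrial carriers.

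Among 15 regulators of mitochondrial biogenesis, Gabpb1 fell between OB and WT (-0.46, adjusted p = 0.049, limma) and 14 were not called. Ppargc1a, the coactivator PGC-1α, had 0.01 ± 0.42 there, Nrf1 0.02, Tfam 0.15 and Esrra 0.24. Between PPARg2KO and WT the same genes had -0.32, -0.32, -0.14 and -0.0024, and between DKO and OB -0.34, -0.24, -0.06 and -0.30. Only Esrra had an unadjusted p under 0.05 in limma among these, between DKO and OB (adjusted p = 0.531), without overlap and not called. The value of Esrra on WT replicate 2 was an outlier spot and was left out. None of the 4 had a higher mean in PPARg2KO than in WT.

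Ribosomal protein genes, which like the members are numerous and abundantly transcribed, were set beside them as a further list. Of 78 mitochondrial ribosome genes 67 were lower in OB than in WT (median -0.30, 7 called, all lower, which is 8.97% beside 11.1% of all probes), and 66 of 76 cytosolic ribosome genes were lower (median -0.14). Between DKO and OB, 60 and 58 of them were higher (medians 0.14 and 0.09), while 61 of 82 members were lower. These signs held for both lists under normexp correction and under 75th percentile scaling. Between PPARg2KO and WT the 2 lists had medians of 0.07 and 0.05, against 0.19 for the members, and between DKO and PPARg2KO -0.22 and -0.09, against -0.21.

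**Figure D5:**
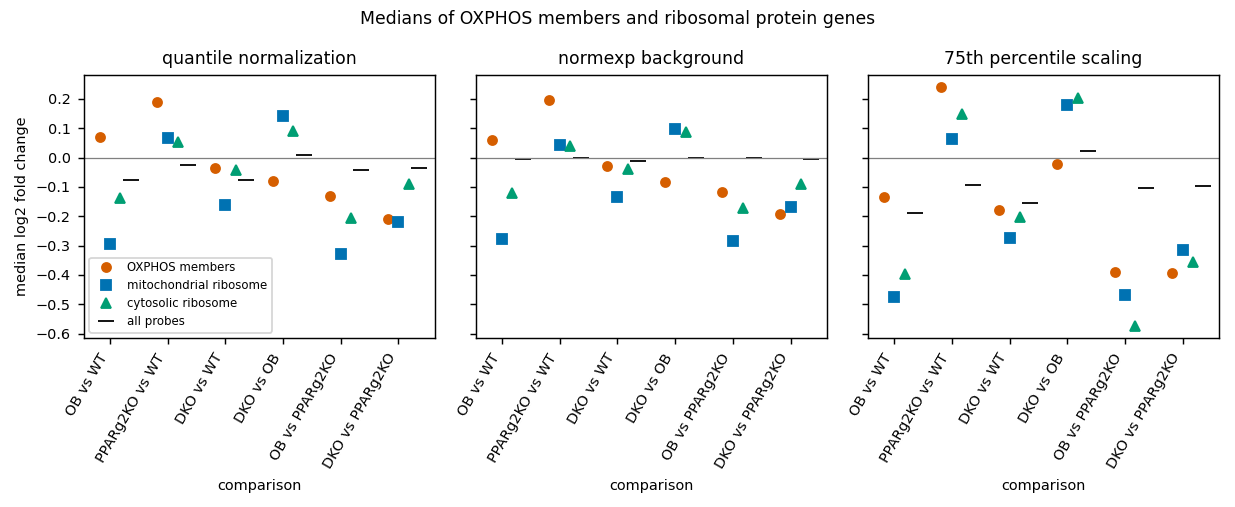
Median log2 fold change of the 82 members, of 78 mitochondrial and 76 cytosolic ribosomal protein genes and of all probes (dashes) in 6 comparisons, under 3 ways of scaling the arrays. Between DKO and OB the members lie below 0 and both ribosomal lists above 0 in all panels, while the members' sign between OB and WT changes with the scaling.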

How the data were processed

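Total RNA of 12 islet pools was labelled with Cy3 and hybridised to 1-colour arrays of 4 genotypes, 3 per genotype. The authors deposited scanner output of Agilent Feature Extraction 10.1.1.1 with processed signal intensity, corrected for background by that software, and a table of normalized log2 values, which served as an alternative. From the processed intensity, 919 outlier spots and all control spots were left out, arrays were quantile-normalized, log2 was taken and spots of a probe were averaged, giving 41174 probes (25097 with 1 symbol, 0 with several, 16077 without), named through a RefSeq table of GRCm38.p6. R 4.3.3 and limma 3.58.1 (lmFit, eBayes, genotype as the only factor, all 12 arrays) gave the tests, with Benjamini-Hochberg adjustment over all probes and a call at an adjusted p of at most 0.05. The study's methods also name an array block, which cannot be fitted with 1 sample per array. The fit was tested on simulated data, with changes of at least 1 log2 unit planted in bright probes of low spread and with independent noise. Nearly all differences of the members were smaller, so this test does not tell how well such differences are found. The number of arrays limits the precision.

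Members and lists were chosen with earlier results of these data known. Named genes were called members, the 4 brightest probes of each complex and all of complex II, the 5 largest differences each way per comparison among probes above background, paralogous forms, a few neighbours and members below background. One member is counted but not reported by name here. Other genes named at an unadjusted p under 0.05 or near the threshold were chosen after their values were seen. The rule misses Ndufab1, and 5 protein-coding symbols that fit it, Ndufa11, Ndufa4l2, Ndufb1, Ndufb4b and Ndufb4c, have no named probe. The alternatives were 75th percentile scaling, quantiles of log2 values, normexp correction (offset 50), a filter on dim probes, outliers kept, the groups compared alone, slide as a block, array weights, the deposited log2 values, a fold criterion, a gene's probes averaged in place of its brightest, and each array left out.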

Additional observations from a re-analysis of the deposited data

How the results depend on the processing

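Besides the values given with the comparisons, the number of members called between OB and WT was 7 and depended most on the settings. It was 1 with 75th percentile scaling, 0 in a fit on only the groups compared, 14 with array weights and 0 with an added fold criterion of 1 on the log2 scale. The probes called there numbered 4555, and 564, 12087 and 2253 under the last 3 of these settings. Array weights also gave 2 called members between DKO and OB, 1 between DKO and WT and 6 between OB and PPARg2KO, where equal weights gave 0. The shares of all probes called with array weights in these comparisons are not given here. Under 75th percentile scaling the median over the members was -0.14 between OB and WT, -0.18 between DKO and WT, -0.39 between OB and PPARg2KO and -0.39 between DKO and PPARg2KO, and the cause was not tested. Leaving out each array in turn gave 0 to 10 called members between OB and WT, 0 to 1 between PPARg2KO and WT, 0 to 7 between OB and PPARg2KO, 0 to 11 between DKO and PPARg2KO, 0 to 2 in the interaction and 0 to 0 between DKO and WT and between DKO and OB. The higher ends came without WT replicate 3 (OB against WT and the interaction) or PPARg2KO replicate 3 (the other 3). The shares of all probes called without single arrays are not given here. The medians ran from 0.05 to 0.10 between OB and WT, 0.12 to 0.23 between PPARg2KO and WT, -0.05 to -0.02 between DKO and WT, -0.11 to -0.07 between DKO and OB, -0.16 to -0.07 between OB and PPARg2KO, -0.26 to -0.15 between DKO and PPARg2KO and -0.37 to -0.23 in the interaction. The replicate numbers are the slides, and samples with the same number did not deviate together (5 of 18 pairs with r over 0.1, from -0.32 to 0.28, and 2 of 12 arrays closest to their own number). With the slide as a replicate block, 8 members were called between OB and WT and 0 in the other comparisons. The share of all probes called in that fit is not given here. Cox7a2l and Atp5b then had adjusted p of 0.0549 and 0.0555 by limma, so that the 8 include members not called without the block. No called member reversed under any alternative, and the number of alternatives out of 20 that called them ran from 6 for Atp5b to 14 for Ndufc2.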
